A study of Rattus norvegicus with 8 samples.

Results

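Untreated thigh muscle of the rat is described here from the 4 control rats of a series of 8. A gene was taken as detected when its probe had a detection p-value under 0.05 on all 4 control arrays, and detected genes were ranked by their mean log2 level, with the brightest probe standing for each gene. The ranking holds 5826 genes out of 13337 with a named probe on the array, which is 43.7%. No value of the treated rats enters it.

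The series is a feeding study in Han Wistar rats, an outbred laboratory stock, built around a compound coded 197. The control rats ate standard chow, and their samples are labelled as the 28 day controls. RNA came from muscle of the thigh, which the labels also call femoris muscle, without naming the single muscle taken. Age and sex are not given in the labels. Total RNA was amplified to biotinylated cRNA and read on 1-colour Illumina beadchips, on which a short probe on a bead reports each transcript. The design text counts rats as the replicates, and the samples are numbered replicates 1 to 4.

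Skeletal muscle is built from long fibres packed with sarcomeres, in which myosin pulls on actin when calcium binds troponin. Fast fibres carry fast isoforms of these proteins and lean on glycogen and creatine phosphate, while slow fibres carry other isoforms, more myoglobin and more fat oxidation. Thigh muscles of the rat differ in their mix of both, and deep regions near the bone tend to hold more slow fibres than superficial ones. Between the fibres lie vessels, blood, nerves, fibroblasts and resident macrophages.

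The arrays had similar detection. Between 8310 and 9507 of 22523 probes were detected on an array, or 36.9% to 42.2%. Median raw signals lay between 97.6 and 108, but these are readings of undetected probes. Over the ranked genes, raw log2 signal deviated from the gene mean by a median of 0.14, 0.06, -0.23 and 0.02 in replicates 1 to 4. Across the ranked genes, levels on pairs of arrays correlated with r from 0.955 (replicates 2 and 3) to 0.976, a description over genes, which are not independent. For 2 arrays, gene groups stood out, in lists chosen with earlier results of these data known. Replicate 3 read many liver and some heart transcripts far above the other arrays. Replicate 2 read several slow-fibre transcripts, such as Myh7, close to background. For the gene groups concerned, the spread is also given without those arrays.

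A level here is log2 of the background-corrected, quantile-normalized intensity, and a difference of 1 is 2-fold. Levels ran from 15.71 down to 5.64, with a median of 8.24. The 402 genes at level 12 or above contrasted with 2664 under level 8. On the linear scale, the 25 brightest genes carried 12.2% of the summed level, the 100 brightest 30.9% and the dimmer 2913 genes only 5.07%. Brightness also depends on the probe. In the 73 genes read by 2 detected probes, the probes differed by a median of 1.67, and by 6.92 in Ube2r2. A rank is therefore that of a probe's reading, not of the number of transcripts.

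The brightest gene on every array was Acta1, the actin of skeletal muscle thin filaments. Its raw intensity was 56896, 52435, 51201 and 54767 in replicates 1 to 4, the highest signal of each array. Quantile normalization gives the top probe of every array 1 value, so its SD of 0 is built in. Of the 25 brightest genes, 8 belong to the fast contractile list and 3 to the sarcomere and Z-disc list. Tnnc2, the calcium-binding troponin of fast fibres, read 15.35, 15.47, 15.35 and 15.40 in replicates 1 to 4. Tnnt3, the fast troponin that holds tropomyosin, read 15.31, 15.34, 15.32 and 15.38. The arrays were nearly equal for both. The other fast genes at the top were the myosin light chains Myl1 and Myl11, the tropomyosin Tpm1, the Z-disc crosslinker Actn3, the calcium buffer Pvalb and the myosin-binding protein Mybpc2, with means between 15.02 and 15.21.

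**Figure D1:**
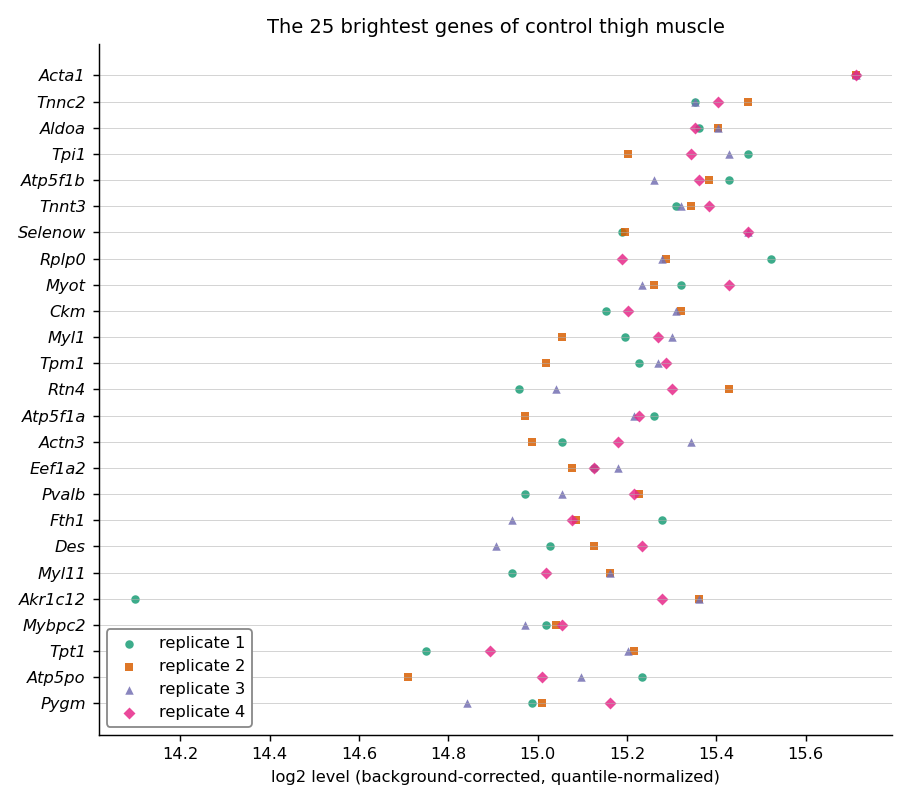
Level of the 25 brightest genes (vertical axis, brightest at the top) on each control array (horizontal axis, log2 level). Each point is 1 array; 23 of the 25 genes have a range under 0.5, and Akr1c12 stands out with replicate 1 at 14.10 against 15.28 to 15.36.

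Of the other genes of the top 25, glycolysis gave 3: the aldolase Aldoa (15.38 ± 0.03; mean ± SD, n = 4 here and below), the triose phosphate isomerase Tpi1 (15.36 ± 0.12) and the glycogen phosphorylase Pygm (15.00 ± 0.13). The ATP synthase gave another 3, Atp5f1b (15.36 ± 0.07), Atp5f1a (15.17 ± 0.13) and Atp5po (15.01 ± 0.22). Ckm, the creatine kinase that regenerates ATP from creatine phosphate, reached 15.25 ± 0.08. The remaining genes include the ribosomal stalk protein Rplp0 (15.32 ± 0.14), the elongation factor Eef1a2 (15.13 ± 0.04), the ferritin chain Fth1 (15.10 ± 0.14), the Z-disc protein Myot (15.31 ± 0.09) and the intermediate filament Des (15.07 ± 0.14). Selenow, a small selenoprotein abundant in muscle, reached 15.33 ± 0.16.

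Membership of this top group was steady. Of the 25 genes, between 20 and 24 were also among the 25 brightest of each single array, and 15 were so on every array. Leaving out replicate 2 kept 21 of the 25, and leaving out any other array kept 24. Akr1c12, an aldo-keto reductase, read 14.10 in replicate 1 against 15.36, 15.36 and 15.28 in the others, and its second probe was detected on no array. Of the 25 brightest probes of any kind, 7 have no gene symbol in the annotation used, so the named ranking is a part of what is brightest.

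The upstream sequence of Acta1 is shown because it belongs to the brightest gene, and those of Tnnt1, Myoz2 and Myh7 because these genes moved together among the rats, as described further on. Each is the 250 bases before the transcription start in RefSeq's GRCr8 assembly, 5′ to 3′ on the gene's own strand. Capitals mark a TATAAA in Acta1 and Tnnt1 and a MEF2 box in Myoz2. MEF2 boxes are bound by MEF2 factors, which drive many muscle genes.
Acta1 (chr19:68784195-68784444, minus strand): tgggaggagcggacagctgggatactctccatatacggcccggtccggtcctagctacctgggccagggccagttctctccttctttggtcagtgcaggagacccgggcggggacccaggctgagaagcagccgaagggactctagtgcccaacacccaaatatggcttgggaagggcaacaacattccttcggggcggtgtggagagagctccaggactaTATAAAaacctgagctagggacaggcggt
Tnnt1 (chr1:78348785-78349034, plus strand): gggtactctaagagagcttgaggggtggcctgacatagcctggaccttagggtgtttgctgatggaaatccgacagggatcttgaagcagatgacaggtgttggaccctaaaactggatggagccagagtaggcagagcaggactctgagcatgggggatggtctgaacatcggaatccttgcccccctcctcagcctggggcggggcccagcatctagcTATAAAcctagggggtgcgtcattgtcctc
Myoz2 (chr2:213852779-213853028, minus strand): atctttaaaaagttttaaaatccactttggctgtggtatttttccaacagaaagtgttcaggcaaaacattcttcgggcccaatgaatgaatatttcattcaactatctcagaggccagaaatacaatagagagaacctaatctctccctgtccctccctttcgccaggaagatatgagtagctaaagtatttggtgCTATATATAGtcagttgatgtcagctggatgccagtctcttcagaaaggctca
Myh7 (chr15:32438195-32438444, minus strand): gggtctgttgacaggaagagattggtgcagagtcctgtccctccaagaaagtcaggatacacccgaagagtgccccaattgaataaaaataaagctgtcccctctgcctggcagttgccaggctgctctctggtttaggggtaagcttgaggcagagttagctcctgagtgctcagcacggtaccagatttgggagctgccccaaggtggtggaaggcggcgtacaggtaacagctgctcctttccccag

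In Acta1 the TATAAA begins at position -29 from the start and in Tnnt1 at -30, while the MEF2 box of Myoz2 begins at -53. Neither motif occurs in the Myh7 stretch. Over windows of 300 bases (the 250 upstream bases and 50 past the start) and both strands, TATAAA was present in 4 of the 21 promoters found for the 25 brightest genes, or 19.0%, against 14.3% of 27457 promoters in the table. CANNTG, the E-box read by myogenic factors such as MyoD, was present in 16 of the 21 (76.2%) against 71.6%. A MEF2 box was present in 0 of the 21, against 3.37% of all. Of the 7 promoters found for the detected slow contractile genes, 1 held TATAAA, 1 a MEF2 box and 7 CANNTG. Among 4899 promoters found for the ranked genes, the shares were lower than in the whole table, at 7.49% for TATAAA, 62.3% for CANNTG and 1.82% for the MEF2 box. These are matches of letters and describe no binding.

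Skeletal muscle markers matched the label. Acta1, Ckm, Myh4, Myl11, Tnnt3 and Mb were detected on all 4 arrays. All 11 fast contractile genes with a probe were detected, 9 of them in the brightest 10% of the ranking, and 9 had a range under 0.5. The 2 wider ones were myosin heavy chains. Myh4, the heavy chain of the fastest fibres, read 9.16, 9.86, 8.54 and 9.62, lowest in replicate 3. Myh2, of intermediate fast fibres, read only 6.64, 5.61, 6.07 and 6.38. Both sat far below the light chains, on probes whose brightness cannot be set against each other. Of 18 detected genes for calcium release and excitation, Calm2 (13.76 ± 0.12), Stac3, an adaptor of the calcium channel (13.45 ± 0.06), Hrc, a calcium-binding protein of the reticulum (13.12 ± 0.06), and Cacng1 (12.53 ± 0.29) were brightest.

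**Figure D2:**
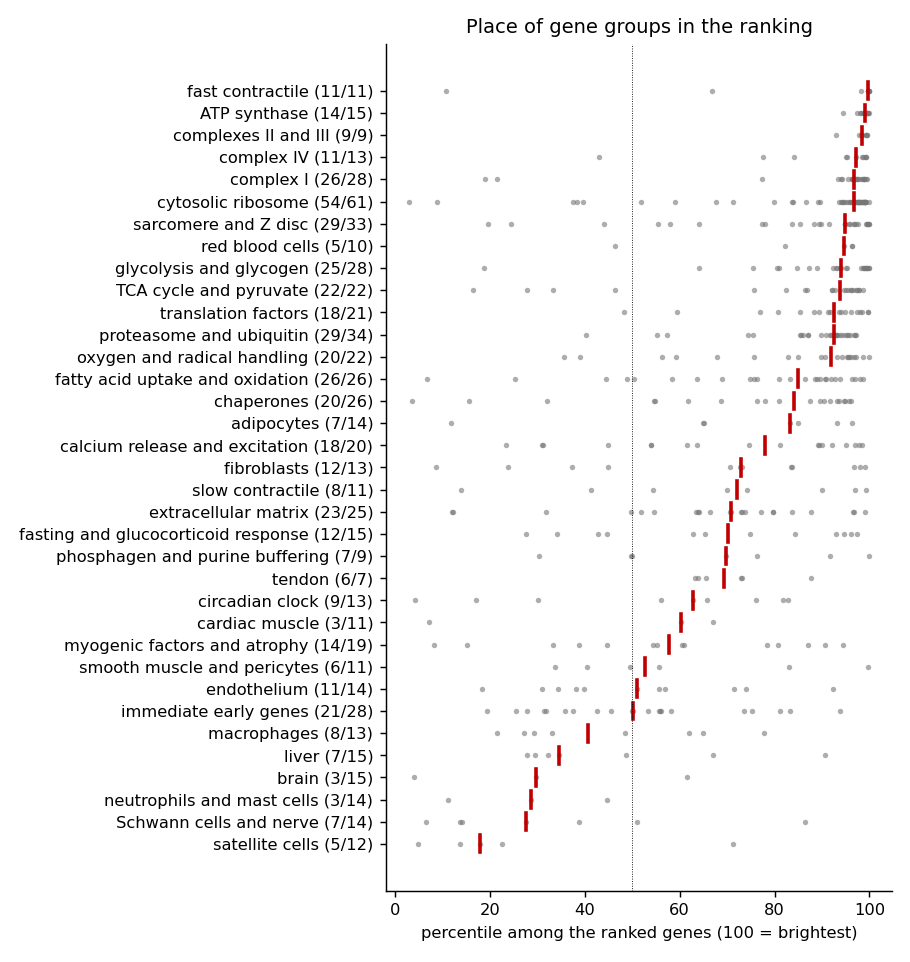
Place of each gene group in the ranking (horizontal axis, percentile of the mean level, 100 being brightest) for groups with at least 3 detected genes; the numbers in brackets are genes detected over genes with a probe. Each grey point is a gene and each red bar a group median, which runs from 99.7 for fast contractile genes to 17.9 for satellite cells, and the dotted line marks the middle of the ranking.

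Genes of oxidative phosphorylation ranked high, with 54 of 60 detected ones among the 583 genes of the brightest 10%. The median percentile (100 is the brightest) was 99.0 for the 14 detected ATP synthase genes, 98.4 for the 9 of complexes II and III, 97.2 for the 11 of complex IV and 96.8 for the 26 of complex I. Leading members were Uqcrh of complex III (15.00 ± 0.08), Ndufb9 of complex I (14.78 ± 0.24), the electron carrier Cycs (14.73 ± 0.15) and Cox8b, a muscle form of a complex IV subunit (14.52 ± 0.15). All 22 genes of the citric acid cycle and pyruvate list were detected, led by the malate dehydrogenase Mdh2 (13.80 ± 0.14). All 26 of fatty acid uptake and oxidation were detected too, at a median percentile of 84.8. Hadhb, of the trifunctional protein of beta oxidation, led them at 13.88 ± 0.17.

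Glycolysis and glycogen genes were detected in 25 of 28 cases, with 17 in the brightest 10%, among them Gapdh, the usual reference gene, at 13.79, 13.85, 13.73 and 13.94. Cytosolic ribosomal proteins were detected in 54 of 61 cases with a median percentile of 96.7. Rpl11, Rpl12, Rpl34, Rpl36a and Rps19 were detected on no array although their partners Rplp1 (14.39 ± 0.08) and Rps4x (14.33 ± 0.10) were bright. The ribosome needs all of these proteins. The probe of the chaperone Hsp90ab1 was likewise detected on no array, at 5.19, 5.24, 5.18 and 5.24. A probe at background therefore does not show that its gene is silent. Translation factors (18 of 21) and proteasome and ubiquitin genes (29 of 34) had median percentiles of 92.6 for both, with Psmb1, a proteasome subunit, at 13.11 ± 0.16.

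Many genes that respond to fasting, glucocorticoids and time of day were readable. Pdk4, which blocks pyruvate entry into mitochondria in fasting, was bright at 12.97, 13.31, 13.37 and 13.48. Tsc22d3, a glucocorticoid target, read 12.41, 12.72, 12.13 and 12.55. Trim63, a ubiquitin ligase of muscle atrophy, read 11.30, 11.23, 10.83 and 10.60. These 3 stayed within a range of 1, while 6 of 12 detected genes of the fasting and glucocorticoid list, 8 of 14 of the myogenic and atrophy list and 4 of 9 of the clock list did not, against 12.7% of all ranked genes. Of 13 clock genes with a probe, 9 were detected on every array (69.2%, against 43.7% of all genes with a named probe). Clock, Npas2, Per3 and Cry2 were detected on none. Nr1d1, a repressor of the clock loop, read 10.59, 9.98, 10.92 and 10.77, while Per1, a period gene, read 9.99, 10.08, 8.80 and 7.10. Per1 is named after its values were seen. Replicate 4 was far below the others.

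The spread among the rats was small for most genes. The median SD was 0.218, with quartiles of 0.143 and 0.328, and the median range from lowest to highest array was 0.484. A range of at least 1 was found in 737 genes, or 12.7%, of at least 2 in 95 and of at least 4 in 24. The count of 737 was 413 with no background correction, 437 without replicate 2 and 2686 with median scaling, under which the median SD was 0.451. The 50 most variable genes held 26.5% of all squared deviations. Over all ranked genes, the highest array was replicate 1 in 29.3%, replicate 2 in 31.2%, replicate 3 in 17.5% and replicate 4 in the rest, and the lowest was replicate 1 in 19.7%, 2 in 25.1%, 3 in 31.9% and 4 in 23.2%. In steps of 10% of the ranking, the median SD ran from 0.163 to 0.284. It was 0.169 in the brightest step, rose to 0.284 in the eighth and fell to 0.163 in the dimmest. The steadiest of the brighter 2913 genes, after Acta1, were the reticulon Rtn2 (13.63 ± 0.02), the proteasome subunit Psmb6 (12.16 ± 0.02) and the iron-sulfur assembly factor Isca1 (13.08 ± 0.02). Tafazzin, which remodels cardiolipin in mitochondria (9.64 ± 0.02), and Pqbp1, a splicing protein (8.27 ± 0.03), followed.

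**Figure D3:**
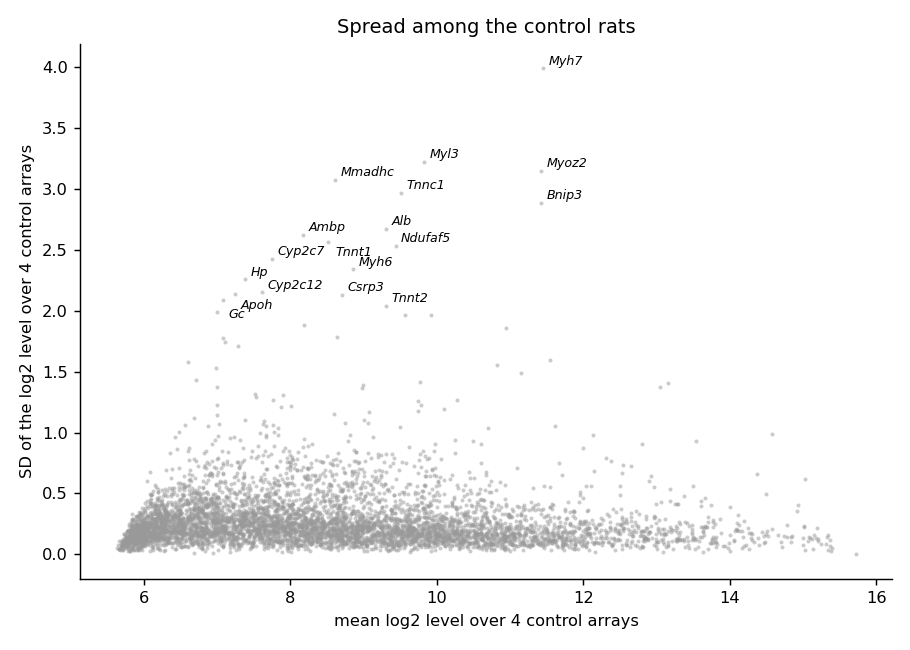
SD of the log2 level over the 4 control arrays (vertical axis) against the mean log2 level (horizontal axis) for the 5826 ranked genes, 1 point each. The labelled genes have the highest SD among the brighter 2913 (12 genes) or the dimmer 2913 (6 genes); Myh7 tops the plot at 3.99, against a median of 0.218.

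The gene with the highest SD belongs to slow fibres. Myh7, the myosin heavy chain of slow fibres and of the heart's ventricles, read 14.52 in replicate 1, 6.11 in replicate 2, 14.48 in replicate 3 and 10.70 in replicate 4. Within each array it stood at rank 45, 5224, 46 and 936. It was among the brightest 50 genes in 2 rats, intermediate in replicate 4 and close to the floor in replicate 2. Its SD was 3.99 over all arrays, 2.20 without replicate 2 and 4.24 without replicate 3. Myl3, the slow and ventricular light chain, read 12.57, 5.73, 12.21 and 8.79. Tnnc1, the slow and cardiac calcium-binding troponin, read 11.95, 5.91, 11.94 and 8.26. Tnnt1, the slow tropomyosin-binding troponin, read 10.79, 5.65, 10.57 and 7.03. All 3 followed the order of Myh7 in that replicates 1 and 3 were high and nearly equal, replicate 4 lay between and replicate 2 was lowest.

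In the slow list, all 11 genes with a probe read higher in replicates 1 and 3 than in replicates 2 and 4. Over all ranked genes, replicates 1 and 3 both lay above 2 and 4 in 19.5%, and among genes with a range of at least 1 in 28.2%. The detected slow genes numbered 8, with a median SD of 1.98, while the 11 fast genes had 0.124. Their median deviation from the gene mean was 1.80, -2.12, 1.58 and -0.89 in replicates 1 to 4. The summed linear level of the 11 slow probes was 100490, 14006, 91078 and 30638. Without replicate 2 the median range of the detected slow genes was 3.14, and with all arrays 3.86. Tnni1, the slow inhibitory troponin, was detected on 2 arrays alone (9.01 and 8.49 in replicates 1 and 3). Actn2, a Z-disc actinin also used by fast fibres, and Atp2a2, the slow and cardiac calcium pump, remained bright everywhere, at 13.18 and 12.01 in replicate 2.

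**Figure D4:**
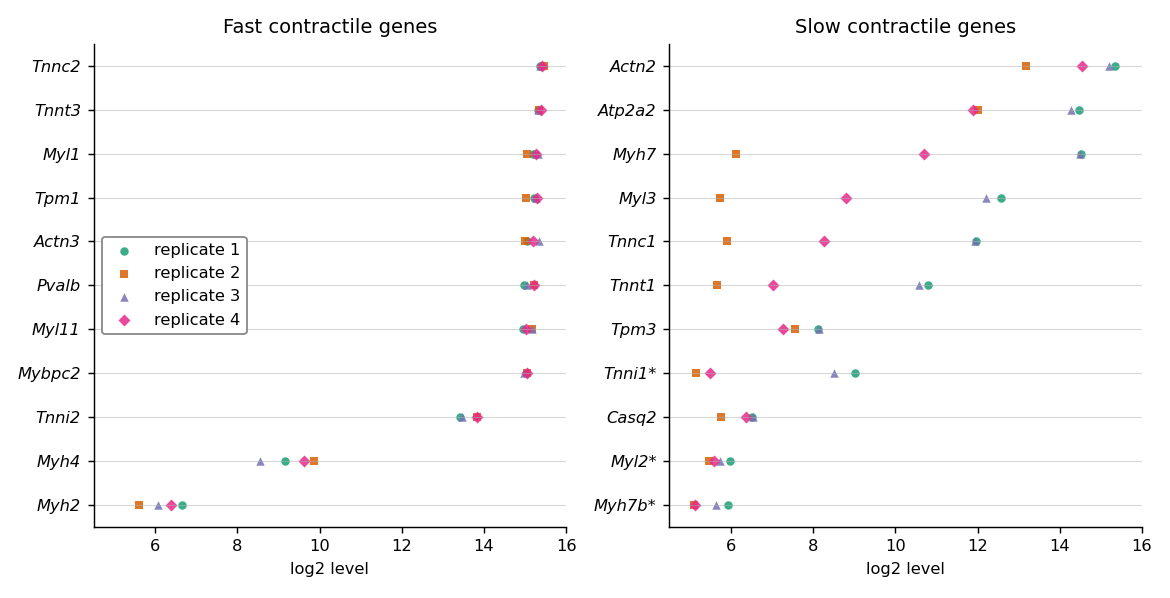
Levels of the fast contractile genes (left) and slow contractile genes (right) on each control array (horizontal axis, log2 level); each point is 1 array, and an asterisk marks a gene not detected on every array. Fast genes overlap across arrays except the heavy chains Myh4 and Myh2, while the slow genes spread, Myh7 from 6.11 to 14.52.

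Other genes tied to oxidative fibres were also higher in replicates 1 and 3 than in replicate 4, and lowest in replicate 2. Myoz2, a Z-disc protein of slow and cardiac muscle, read 13.89, 7.18, 13.73 and 10.91. Csrp3, a muscle LIM protein of the Z disc, read 9.98, 5.89, 10.67 and 8.29. Mb, the oxygen store myoglobin, read 14.07, 11.07, 13.88 and 13.18. The range was widest in Myoz2. Ldhb, the heart-type lactate dehydrogenase, named after its values were seen, read 11.05, 7.08, 11.38 and 10.16. Fatty acid genes were lowest in replicate 2 in 24 of 26 cases, against 25.1% of all genes, by a median of -0.55 from the gene mean. Their median range was 0.925, and 0.409 without replicate 2. Lpl, which frees fatty acids from blood lipids, read 13.47, 12.18, 13.18 and 13.03. The oxidative phosphorylation lists moved the same way but less, with replicate 2 at -0.17 to -0.24. Their median ranges were 0.356 to 0.450, and 0.172 to 0.251 without replicate 2. Under scaling of each array to 1 median, where all genes of replicate 2 sit 0.35 above their means, these lists read 0.13 to 0.18 there, and relative to that shift they stay below it at -0.16 to -0.22. In a whole-muscle sample, fewer cells of a type and less RNA per cell cannot be told apart, and which region of the thigh each piece came from is not given in the labels.

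Liver transcripts were read in replicate 3. Alb, the serum albumin made by hepatocytes, read 8.89 in replicate 1, 7.43 in replicate 2, 13.19 in replicate 3 and 7.70 in replicate 4. Its rank was 176 in replicate 3 and between 2311 and 3765 elsewhere, and its second, dim probe read 5.13, 5.17, 5.62 and 5.27. Tf, the iron carrier transferrin, read 10.97, 10.73, 13.93 and 10.55. Ambp, the precursor of a plasma microglobulin and bikunin, read 8.20, 6.22, 11.87 and 6.40. Replicate 3 stood alone for each, and replicate 1 came next.

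Among the 15 liver genes with a probe, 12 read at least 1 higher in replicate 3 than in each other array. Among the 5826 ranked genes, 36 did so. Replicate 1 came second in 12 of the 15. Of the 15 liver genes, 7 were detected on every array (46.7%, near the 43.7% of all genes with a named probe). They include Hp, the haemoglobin-binding haptoglobin (6.84, 5.97, 10.71 and 5.99). The summed linear level of the 15 probes was 3650, 2484, 36351 and 2394. Tat, a tyrosine-degrading enzyme of the liver, was detected on no array, nor were Cyp3a2 and Cyp2c11, liver enzymes known to be higher in male rats. The median range of the detected liver genes was 4.53, and 1.18 without replicate 3. Over the detected liver genes, replicate 3 lay a median of 4.49 above the median of the other arrays, and 3.81 to 4.43 when 1 of those was left out. The 6 most variable of the dimmer 2913 genes, Ambp, Cyp2c7, Hp, Cyp2c12, Apoh and Gc, are all known as liver products and all were highest in replicate 3. Cyp2c7 and Cyp2c12, steroid and drug oxidases of which the latter is known to be higher in female rats, read 11.30 and 10.79 there, and at most 7.26 and 6.89 elsewhere.

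Of the 5826 ranked genes, 36 were at least 1 higher in replicate 3 than in every other array. Of these, 7 are in the liver list and 2 in the cardiac list. For replicates 1, 2 and 4 the counts of such genes were 4, 26 and 4. Genes at least 1 below every other array numbered 10, 26, 11 and 14 in replicates 1 to 4. At a level of 7 or more, 18 named probes were detected in replicate 3 alone, against 0, 2 and 0 in replicates 1, 2 and 4. They include Plg, Serpinc1, Fgb and C9, proteins of clotting and complement secreted by the liver, at 8.36, 8.12, 8.06 and 7.30. Mybpc3, a cardiac myosin-binding protein, is also among them, at 7.74. These genes were chosen after their values were seen. The source of these transcripts was not tested.

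Some heart transcripts were also highest in replicate 3, in 7 of 11 cases with a probe, against 17.5% of all ranked genes. Myh6, the myosin heavy chain of the atria and of the rodent ventricle, read 8.90, 6.76, 12.10 and 7.64. Tnnt2, the cardiac troponin T, also made in developing skeletal muscle, read 9.20, 8.06, 12.22 and 7.74. Tnni3, the cardiac inhibitory troponin, was detected on 3 arrays and read 6.92, 5.43, 9.01 and 5.82. Replicate 3 was well above replicate 1 for each, whereas Myh7, Myl3, Tnnc1 and Tnnt1 were nearly equal in these rats. Of 11 cardiac genes with a probe, 3 were detected on every array (27.3%, against 43.7% of all genes with a named probe). In replicate 3, 3 of the 11 read at least 1 higher than in each other array, as did 36 of the 5826 ranked genes. Bmp10, detected on every array, differed little, at 5.85, 5.72, 6.26 and 6.21. The atrial light chain Myl7 and the natriuretic peptide Nppa read at most 5.59 and 5.82 on any array. Gata4, Nkx2-5, Tbx5 and Hcn4, factors and a channel of heart cells, were detected on none. The summed linear level was 1533, 755, 10081 and 834. The median range of the 3 detected cardiac genes was 4.48, and 1.47 without replicate 3. Their part in the Myh7 pattern was not tested, and without replicate 3 the median range of the detected slow genes was 3.91.

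**Figure D5:**
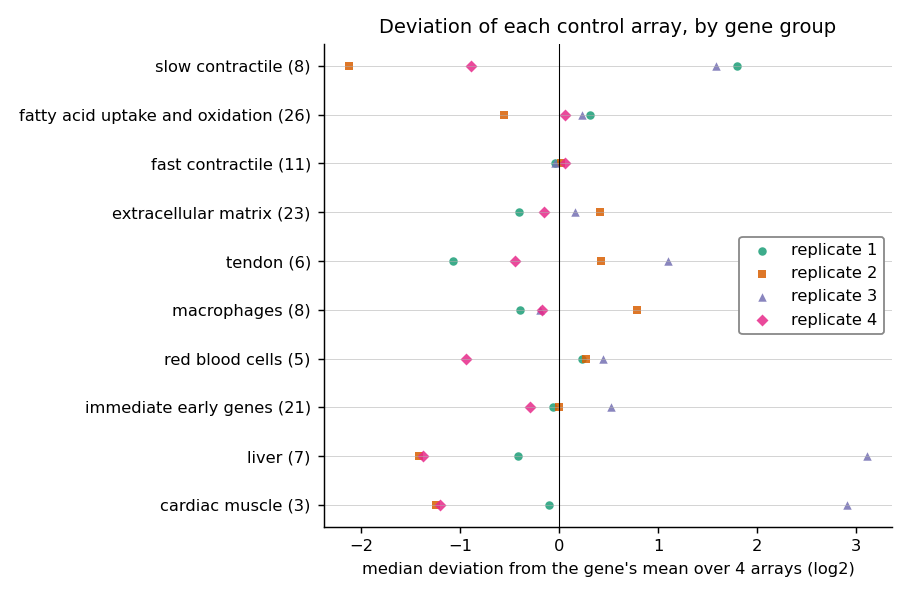
Median deviation of each control array from the gene's mean over the 4 arrays (horizontal axis, log2) for 10 gene groups, with the number of detected genes in brackets; each point is 1 array. Liver and cardiac genes stand at 3.11 and 2.91 in replicate 3, slow contractile genes at -2.12 in replicate 2, while fast contractile genes lie between -0.04 and 0.06.

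Many connective tissue genes were lowest in replicate 1. Of 23 detected matrix genes, 14 were lowest there, against 19.7% of all genes, and 15 were highest in replicate 2, against 31.2%, with median deviations of -0.41, 0.41, 0.16 and -0.15. Col1a2, a chain of collagen I, read 13.49, 14.94, 14.78 and 14.25. Dcn, the collagen-binding decorin, read 12.43, 13.41, 13.24 and 13.16. Gsn, the actin-severing gelsolin of the fibroblast list, read 12.96, 13.88, 13.81 and 13.79. Replicate 1 was low in Col1a2, Dcn and Gsn. Replicate 4 was lowest in 5 of the 23 matrix genes, a share near the 23.2% of all ranked genes. Sparc read 12.76, 13.42, 13.27 and 12.54, and Thbs4 read 10.63, 11.05, 12.11 and 10.58, both lowest in replicate 4. Col3a1, a collagen named after its values were seen, read 10.05, 10.78, 10.76 and 6.66, far lowest there. Tendon genes spread wider, with 5 of 6 lowest in replicate 1 and 4 highest in replicate 3. Fmod, the fibromodulin of tendon matrix, read 8.52, 10.15, 11.32 and 8.97, and Tnmd, a membrane protein of tendon cells, read 7.93, 9.15, 10.48 and 8.66. The median range of tendon genes was 2.19, and 1.44 without replicate 3. Under the other scalings the same arrays were extreme, relative to the shift of all genes.

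Blood and immune genes moved with other arrays. Hba-a1, an alpha globin, read 13.21, 13.15, 13.36 and 11.96, and Hbb, a beta globin, read 12.86, 13.17, 13.48 and 12.07, so replicate 4 was low for both. Globin genes are near-identical copies and share probes to an unknown extent. Of 10 red cell genes, 5 were detected on every array (50%, against 43.7% of all genes with a named probe). All 5 were lowest in replicate 4, as were 23.2% of all ranked genes. Bpgm, 1 of these, differed little, at 12.52, 12.52, 12.36 and 12.31. Alas2, the haem enzyme of red cell precursors, was detected on no array. The probes of all 10 genes summed to 24996, 26631, 29553 and 14442 on the linear scale. Macrophage genes were detected in 8 of 13 cases and all 8 were highest in replicate 2, as were 31.2% of all genes, with summed linear levels of 2468, 4898, 2950 and 2930. C1qb, a complement component, read 8.68, 10.03, 8.87 and 8.96, and C1qc read 8.64, 9.77, 8.67 and 8.72. The mast cell proteases Cma1 (7.55, 8.78, 7.74 and 7.73), Cpa3 and Tpsb2 were likewise highest in replicate 2.

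Immediate early genes, which respond within minutes to signals from outside the cell, were highest in replicate 3 in 14 of 21 cases, against 17.5% of all ranked genes and 33.9% of those with a range of at least 1. Dusp1, a phosphatase of MAP kinases, read 12.02, 12.06, 13.07 and 11.42. Egr1, a zinc finger factor named after its values were seen, read 6.35, 6.99, 8.60 and 6.95. Their median deviations were -0.07, -0.01, 0.53 and -0.30, so replicate 3 was high and replicate 4 low. Their median range was 1.08, and 0.662 without replicate 3.

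Other cell types differed in where they ranked. Of all genes with a named probe, 43.7% were detected on every array. The shares for satellite cell genes (41.7%) and for nerve and Schwann cell genes (50%) were near that. Endothelial genes were detected in 11 of 14 cases at a median percentile of 51.0, among them the water channel Aqp1 (11.84 ± 0.19) and the junction protein Cldn5 (9.81 ± 0.20). Satellite cell genes were detected in 5 of 12 cases at a median percentile of 17.9, and Pax7, their defining factor, on no array. Nerve and Schwann cell genes numbered 7 of 14, led by the myelin protein Pmp22 (10.94 ± 0.40), and Sox10 was detected on no array. Lymphocyte genes were detected on all arrays in 0 of 14 cases, and summed to 539 to 553. The counts were 0 of 11 for testis, 0 of 5 for skin, 1 of 12 for kidney and gut, 1 of 13 for pancreas and salivary gland and 3 of 15 for brain. The gene of kidney and gut was Fabp1, a fatty acid binder also made in the liver, at 5.95, 5.81, 7.96 and 6.18.

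A few genes stood apart on 1 or 2 arrays without their group. Bnip3, a mitophagy protein, read 13.05, 13.16, 12.35 and 7.13. Ndufaf5, an assembly factor of complex I, read 10.19, 10.84, 5.68 and 11.04. Mmadhc, a vitamin B12 handling protein, read 11.16, 6.12, 11.36 and 5.79. Replicate 4 was low for the first, replicate 3 for the second and replicates 2 and 4 for the third, near the floor in Ndufaf5 and Mmadhc. Each gene is read by 1 named probe, and the cause was not tested. By a rule that asks whether the highest or lowest array lies apart from the other 3 (gap over range above Dixon's critical value), 294 genes had 1 array apart, or 5.05%, where chance gives about 1 in 20. With normexp and median scaling it was 165, or 2.83%.

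The threshold is not a sharp border. The 313 probes whose highest detection p lay from 0.04 to just under 0.05 had a median level of 5.84, and the 213 from 0.05 to just under 0.06 one of 5.76. The lowest ranks were held by Pde7b, Ebna1bp2, Emp2, Ephb3 and Hip1r, with means of 5.64 to 5.66, and their order carries no information.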

How the data were processed

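The 4 control arrays were analysed on their own. Per the file headers, the authors deposited non-normalized intensity values and, beside each, a detection p-value. The steps of scanning, detection and normalization are not stated in those headers or in the labels. The detection p-values move in steps of 1 in 825. All columns of the authors' deposited normalized intensity table hold the same sorted values, and it served as an alternative.

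Intensities were background-corrected with limma's neqc from the detection p-values (offset 16), quantile-normalized over the 4 arrays and put on the log2 scale (limma 3.58.1, R 4.3.3; tables with pandas 2.3.3, figures with matplotlib 3.10.9). Of 22523 probes, 13793 have 1 symbol in the platform annotation, 0 several and 8730 none; 13752 were brought up to date by gene number through RefSeq's GRCr8 table. With 1 group there is no test, and the number of arrays limits the precision.

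The 40 gene lists and the members were chosen with earlier results of these data known. Named genes are the 25 brightest, the 4 brightest detected members of each list, the 12 with the highest SD among the brighter 2913 genes and 6 among the dimmer, the 6 of the brighter with the lowest SD and the 5 with the lowest level. Others are said to be chosen after their values were seen, or show list members. Promoters are from RefSeq (GRCr8).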

Additional observations from a re-analysis of the deposited data

Results flagged for a closer look

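For each named gene and for the summed level of each list, it was asked whether the highest or lowest of the 4 arrays lay apart from the other 3 by a gap that, as a share of the range, exceeds Dixon's critical value, which chance gives in about 1 in 20 groups. Of 161 named genes, 15 met this, or 9.32%, against 5.05% of all 5826 ranked genes. Bnip3, Ndufaf5 and Gc among the 15 were named for their high SD, so the named genes are not a neutral sample. With replicate 3 apart were Gc at 10.17 and Tf at 13.93, both high, and Ndufaf5 at 5.68, low. With replicate 4 apart, all low, were Bnip3 at 7.13, Hba-a1 at 11.96 and Hbb-b1, a second beta globin, at 9.57.

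With replicate 2 apart were Atp5f1a at 14.97, the fatty acid dehydrogenase Acadm at 12.68 and the peroxidase Gpx4 at 13.89, all low. Pgk1, a glycolytic kinase, at 14.84, C1qc at 9.77 and Cma1 at 8.78 were high there. With replicate 1 apart were Akr1c12 at 14.10 and Gsn at 12.96, low, and Uqcrh at 15.12, high. In Pgk1, Acadm, Gpx4 and Uqcrh the other arrays were nearly tied. The whole range was small in Gpx4 (0.11), Uqcrh (0.16) and Pgk1 (0.21). In Acadm it was 0.58, above the median range of 0.484 over the ranked genes.

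Of the 40 lists, 3 had 1 array apart in their summed linear level, each in replicate 3. Chance gives about 1 in 20. Liver probes summed to 36351, and those of kidney and gut to 659 against 465 to 489 elsewhere. Lymphocyte probes, none detected on all arrays, summed to 539 against 551 to 553, a difference among probes at background.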

How the results depend on the processing

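The alternatives changed the background correction, the scaling, the source of the values, the detection rule, the choice of probe and the arrays included. The count of detected genes was 4661 at a detection p under 0.01 and 6886 when 2 arrays sufficed, both within 1.5 times the value reported. The 25 brightest genes were the same 25 under every scaling and detection and probe rule tried, and between 21 and 24 when an array was left out. The count of genes with a range of at least 1 depended most on the scale. It was 413 with no background correction, 448 in the authors' normalized table and 2686 with normexp and median scaling, and 437 to 632 with 1 array left out, the lowest without replicate 2. With normexp and median scaling the arrays' median deviations over all genes were 0.29, 0.35, -0.41 and -0.22 in replicates 1 to 4, the median SD rose to 0.451 and 165 genes had 1 array apart. The lowest correlation between 2 arrays was 0.956 to 0.970 with 1 array left out, and 0.967 without replicate 3. Of 53 named ranks outside the lists' own choices, 1 to 8 moved by more than the spread of the arrays' ranks where any did, mostly the 5 dimmest genes; 14 genes were not detected at a p under 0.01. In alternatives added after seeing the data, the median range of the slow genes was 2.59 to 4.30 and the lead of replicate 3 in liver genes 3.02 to 4.49. The spread of single lists and of Myh7 without an array was likewise added after seeing the data. The range of Myh7 stayed between 7.37 and 8.49 and that of Alb between 4.91 and 5.77 over 5 scalings. Genes under about level 6 lie close to background, where order is not resolved. No paired analysis was possible because a single group is described and no test was made.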
